A study of Homo sapiens with 6 samples.

Results

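The amino acid transporter genes of solute carrier families SLC1, SLC3, SLC6, SLC7, SLC36, SLC38 and SLC43 were taken from the deposited table as all protein-coding genes whose symbol starts with 1 of these 7 family names. This gave 60 genes of 58825. Of the 60, 59 belong to the carrier families and 1, SLC7A6OS, is named only for lying opposite SLC7A6 and encodes no carrier. The cells were 143B, a human osteosarcoma line, grown with 10% serum and transfected for 36 h with 80 nmol/L siRNA. Poly(A) RNA was sequenced from 3 libraries with the SIGLEC15 siRNA and 3 with a negative control siRNA. All 6 libraries come from 1 line and 1 SIGLEC15 siRNA label. Nothing in the labels tells whether replicate libraries were grown apart, so each p-value below rests on a library-to-library spread that may be only technical.

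Amino acid carriers feed protein synthesis, and several of them also set the signal that amino acids give to the growth kinase mTORC1. Sodium-coupled carriers of SLC1 and SLC38 concentrate neutral amino acids such as glutamine and alanine in the cell, and exchangers such as SLC7A5 then trade these for leucine and other essential amino acids. The SLC7 light chains reach the cell surface only when joined to a heavy chain of SLC3, and SLC7A11 imports cystine for glutathione. In tumour cells SLC1A5, SLC7A5 and SLC7A11 are known for high expression, and starvation for amino acids raises many carrier genes through the transcription factor ATF4.

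Levels are given as CPM, the count of a gene relative to the scaled library total, or as FPKM, which also allows for gene length. Libraries held between 57966691 and 67655254 gene counts. The target of the siRNA, SIGLEC15, had 12, 8 and 6 counts in the SIGLEC15 siRNA libraries and 12, 10 and 22 in the control libraries, and its difference did not pass the test (edgeR adjusted p = 0.529), so lower SIGLEC15 RNA is not shown here. The bone matrix gene SPARC (109 and 62.6 FPKM on average in the SIGLEC15 siRNA and control libraries), VIM (437 and 482 FPKM) and SPP1 (13.6 and 15.8 FPKM) were present. The osteoblast genes ALPL, BGLAP and COL1A2 stayed at or below 0.146 FPKM in both groups and IBSP had no counts. Of 9 osteosarcoma cell markers 7 were tested, and 2 were higher at an edgeR adjusted p under 0.05. That is 28.6%, where 4.65% of all tested genes passed. Of 7 markers of other cell types 2 had enough counts to be tested, and 0 passed. PTPRC, CD3E and CDH1 had no counts, while the epithelial marker EPCAM, 1 of the 2 tested, stood at 3.41 and 4.1 FPKM.

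Of the 60 genes, 31 had enough counts to be tested, 18 had no count in any library and 11 had between 3 and 42 counts over all libraries. Among the 18 without counts were the brain-type carriers SLC6A2, SLC6A3 and SLC6A5, which take up noradrenaline, dopamine and glycine, the glutamate carriers SLC1A6 and SLC1A7, and the epithelial carriers SLC6A14, SLC6A18, SLC6A19 and SLC6A20. The rest of the 18 were SLC6A7, SLC6A13, SLC6A17, SLC7A13, SLC7A14, SLC36A2, SLC36A3, SLC38A8 and SLC38A11. The 11 with stray counts were SLC1A2, SLC3A1, SLC6A4, SLC6A11, SLC6A12, SLC6A15, SLC6A16, SLC7A4, SLC7A9, SLC7A10 and SLC38A5. A count of 0 allows a level of up to 3 counts, which is 0.0447 to 0.0509 CPM in the SIGLEC15 siRNA libraries and 0.0484 to 0.0508 CPM in the control libraries, for counting error only.

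By FPKM, 27 of the 60 genes had a mean of at least 1 FPKM in the control libraries, 9 of at least 10 and 3 of at least 50. SLC38A2, a sodium-coupled carrier of small neutral amino acids, had the highest level, with 102, 82.4 and 114 FPKM in the SIGLEC15 siRNA libraries and 125, 119.5 and 108 FPKM in the control libraries. SLC7A5, the leucine exchanger LAT1, had 80.3, 81.1 and 80.4 FPKM in the SIGLEC15 siRNA libraries and 91, 89.5 and 86 FPKM in the control libraries. SLC1A5, the glutamine exchanger ASCT2, had 77.7, 75.2 and 74.4 FPKM in the SIGLEC15 siRNA libraries and 85.9, 84.7 and 87.5 FPKM in the control libraries. In the control libraries the levels of SLC7A5 and SLC1A5 overlapped, and SLC38A2 lay above both in every library. Next came SLC38A1 (29.9 and 42.2 FPKM on average in the SIGLEC15 siRNA and control libraries), SLC3A2 (37.8 and 36.1 FPKM), SLC7A1 (29.1 and 33.5 FPKM) and SLC43A3 (25.1 and 30.7 FPKM). In the SIGLEC15 siRNA libraries SLC3A2 (35.9 to 40.1 FPKM) lay above SLC38A1 (26.8 to 32.9 FPKM), whereas in the control libraries SLC38A1 (37.8 to 45.2 FPKM) lay above SLC3A2 (34.2 to 37.1 FPKM). The values of SLC3A2, SLC7A1 and SLC43A3 overlapped in the control libraries. The 5 genes of highest level held 64.9% to 69.9% of the summed FPKM in the SIGLEC15 siRNA libraries and 68.8% to 70.5% in the control libraries. This sum covers the 59 genes without SLC7A6OS.

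**Figure D1:**
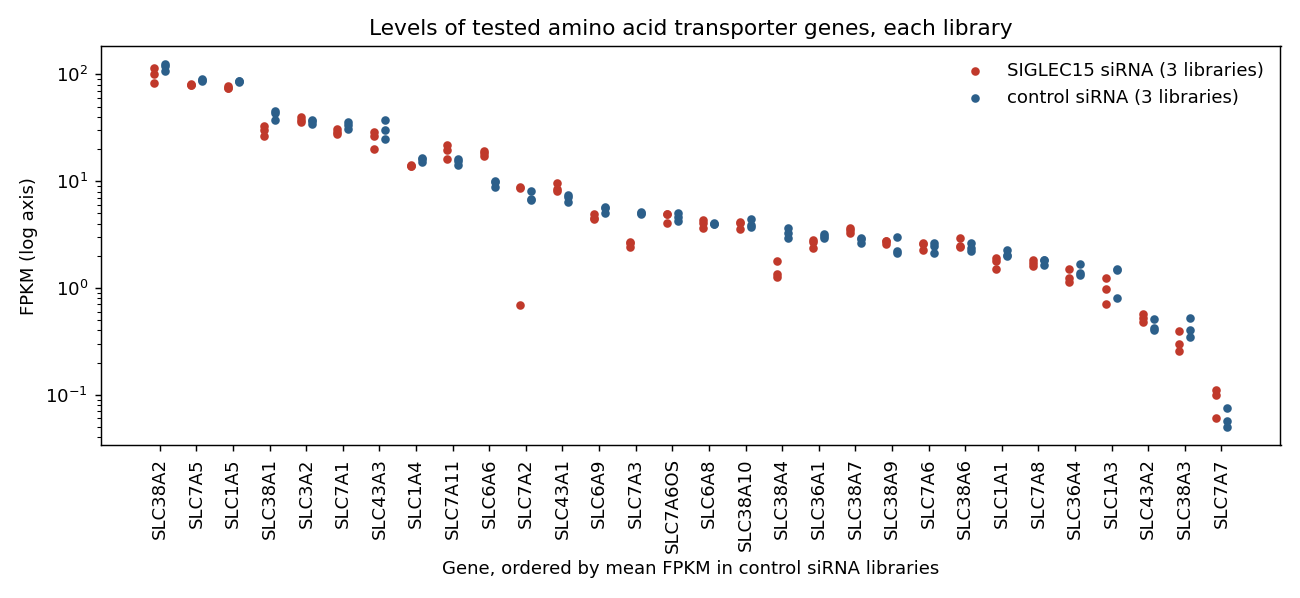
Level of the tested genes reported here in FPKM on a log axis, ordered by the control mean, with 1 point per library (SIGLEC15 siRNA in red, control siRNA in blue). SLC38A2, SLC7A5 and SLC1A5 stood highest, and the lone low red point of SLC7A2 is SIGLEC15 siRNA replicate 1 (0.685 FPKM).

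In the comparison of the SIGLEC15 siRNA with the control siRNA, 1 of the 31 tested genes rose, the taurine carrier SLC6A6, and 3 fell, the arginine carrier SLC7A3 and the neutral amino acid carriers SLC38A1 and SLC38A4 (edgeR quasi-likelihood test, Benjamini-Hochberg adjusted p under 0.05 over all 18910 tested genes). The 4 calls are 12.9% of the 31, where 4.65% of all tested genes were called. Of all tested genes 2.22% were called higher and 2.43% lower. These shares are not matched for level. Among genes with a mean of at least 1 FPKM, edgeR called 1030 of 12003, with 1 higher and 3 lower of 27 members. The other 27 did not pass. The families were chosen with earlier results of these data known, so these shares are not an independent test. A log2 fold change is SIGLEC15 siRNA over control siRNA throughout, and in bulk RNA fewer cells expressing a gene and less RNA per cell cannot be told apart. Estimates lay below 0 for 21 of the 31 and above for 10, with a median log2 fold change of -0.14, against -0.01 over all tested genes. In 14 of the 31 (45.2%) the values of the 2 groups did not overlap, where 26.6% of all tested genes showed no overlap. At an unadjusted p under 0.05 there were 12 of the 31, 4 higher and 8 lower, and 19.1% of all tested genes.

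**Figure D2:**
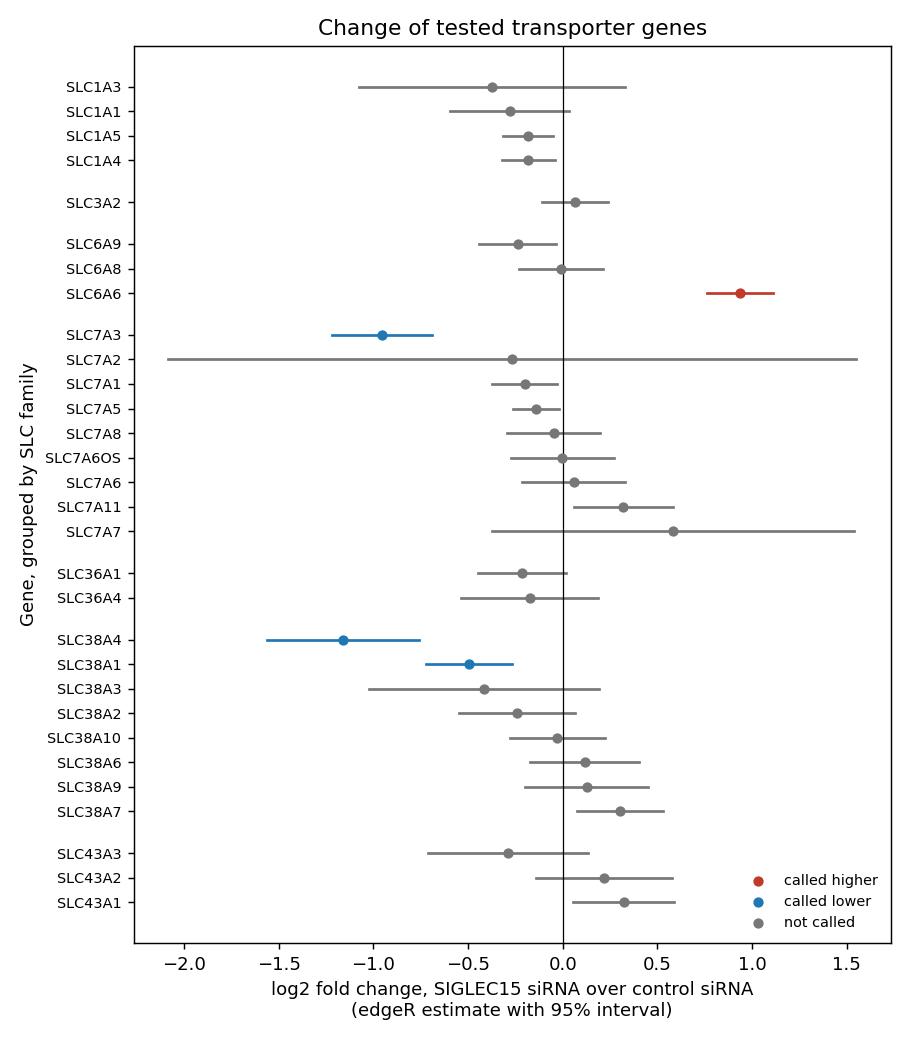
edgeR log2 fold change (SIGLEC15 siRNA over control siRNA) of the tested genes reported here with its 95% interval, grouped by family. SLC6A6 stood alone on the higher side among called genes, SLC7A3, SLC38A1 and SLC38A4 on the lower side, and the wide interval of SLC7A2 ran from -2.08 to 1.55.

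The 3 system A carriers, which move alanine, serine and glutamine with sodium, lie side by side on chromosome 12. SLC38A1 (ENSG00000111371, chromosome 12, 46183063 to 46269951, minus strand, coordinates as deposited) is followed after 88.2 kb by SLC38A2 and then by SLC38A4 (ENSG00000139209, 46764761 to 46825997, minus strand), and the 3 genes together span 643 kb. SLC38A1, known as SNAT1, had 323, 352 and 394 CPM in the SIGLEC15 siRNA libraries and 534, 518 and 456 CPM in the control libraries. All 3 SIGLEC15 siRNA values were below the lowest control value, and SLC38A1 fell 1.41-fold (log2 fold change -0.49, SE 0.0961, edgeR adjusted p = 0.0388). SLC38A4, or SNAT4, best known from liver, had 6.3, 6.49 and 8.86 CPM in the SIGLEC15 siRNA libraries and 17.7, 14.5 and 16.2 CPM in the control libraries. These groups were likewise apart, and SLC38A4 fell 2.23-fold (log2 fold change -1.16, SE 0.169, edgeR adjusted p = 0.0159), the lowest log2 fold change of the 31. SLC38A2, or SNAT2, the most abundant of the 3 and the one known to be induced when amino acids run short, had 801, 625 and 888 CPM in the SIGLEC15 siRNA libraries and 960, 924 and 851 CPM in the control libraries. SLC38A2 overlapped between the groups and did not pass (log2 fold change -0.24, 95% interval -0.55 to 0.07, edgeR adjusted p = 0.383). With 1 library left out, the log2 fold change of SLC38A2 lay between -0.35 (without SIGLEC15 siRNA replicate 3) and -0.11 (without SIGLEC15 siRNA replicate 2).

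The calls of SLC38A1 and SLC38A4 depended on the libraries used. SLC38A1 was not called without control replicate 1, 2 or 3 (edgeR adjusted p = 0.12, 0.13 and 0.0572) nor without SIGLEC15 siRNA replicate 1 or 2 (0.095 and 0.138). SLC38A4 was not called without the same libraries (0.0607, 0.0503 and 0.0587 for control replicates 1, 2 and 3, 0.0553 and 0.0745 for SIGLEC15 siRNA replicates 1 and 2). The log2 fold change over all 6 fits with 1 library left out, the one without SIGLEC15 siRNA replicate 3 included, lay between -0.57 and -0.43 for SLC38A1 and between -1.33 and -1.07 for SLC38A4.

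The window around the 3 genes was looked at after their values were seen. Within 500 kb on either side, 8 other genes were tested, among them ARID2, SCAF11 and AMIGO2, and none was called (edgeR adjusted p of at least 0.498). Of all tested genes only 4.65% were called. ARID2, a chromatin remodelling subunit, had a log2 fold change of -0.01 (SE 0.106), SCAF11 one of 0.14 (SE 0.0923) and the adhesion molecule AMIGO2 one of 0.00 (SE 0.0591, -0.00368 unrounded). The 8 lay between -0.20 and 0.47, so the 2 called carriers stood below all of them.

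The promoters of SLC38A1 and SLC38A4 are shown because these called neighbours differ in a motif of amino acid response genes within the windows searched. The sequences are RefSeq's (GRCh38.p14), 250 bases before to 50 after the annotated start, minus strand, and capitals mark a match to TGATGNAA (N is any base), the core of the element through which ATF4 with C/EBP partners acts on amino acid response genes, searched on both strands.
SLC38A1 promoter, chr12:46266467-46266766: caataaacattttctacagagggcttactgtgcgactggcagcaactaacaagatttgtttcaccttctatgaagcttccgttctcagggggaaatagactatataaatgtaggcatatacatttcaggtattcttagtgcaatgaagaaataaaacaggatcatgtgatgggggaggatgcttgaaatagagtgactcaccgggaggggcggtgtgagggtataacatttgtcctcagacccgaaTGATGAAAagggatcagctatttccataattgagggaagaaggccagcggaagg
SLC38A4 promoter, chr12:46825948-46826247: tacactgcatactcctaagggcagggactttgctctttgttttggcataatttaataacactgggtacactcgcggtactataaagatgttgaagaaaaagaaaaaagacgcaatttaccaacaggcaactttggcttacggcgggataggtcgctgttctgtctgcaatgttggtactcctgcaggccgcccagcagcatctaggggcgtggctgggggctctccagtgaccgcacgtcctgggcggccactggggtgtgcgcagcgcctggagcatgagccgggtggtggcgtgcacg
The SLC38A1 promoter held TGATGAAA, whose first base lies 4 bases before the start used, and the SLC38A4 window held none of the motifs searched. Only the first listed start of each gene was searched. That of SLC38A1 lies inside the deposited gene, which reaches 46269951, and that of SLC38A4 at its deposited end, 46825997. Other starts were not searched, so a difference between the genes themselves is not shown. Promoters were found for 45 of the 60 genes, 24 of them tested. SLC6A6, SLC7A3 and SLC7A11 were not among the 45 and were not searched. The core stood in 4 of these 24 and in none of the untested, so in 8.89% of the 45, where 3.62% of all 35116 promoter windows hold it. The other 3 were SLC7A1, SLC3A2 and SLC1A3, given here as stretches of at most 30 bases around the match, which in SLC3A2 lies on the opposite strand.
SLC7A1, within chr13:29595639-29595938, minus strand: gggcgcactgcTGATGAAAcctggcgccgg
SLC3A2, within chr11:62881449-62881748, plus strand: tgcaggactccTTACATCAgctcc
SLC1A3, within chr5:36596338-36596637, plus strand: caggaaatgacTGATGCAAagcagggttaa
These 3 genes were not called. The SLC3A2 window lies inside the deposited gene, and the SLC1A3 window before the deposited gene. The antioxidant response core TGACNNNGC was in 11.1% of the 45 (13.3% of all windows), among them SLC3A2 and SLC7A5, and its match in SLC3A2, TGACTCAGC, also contains the AP-1 letters TGACTCA. The E-box CACGTG was in 13.3% of the 45 (7.26% of all windows), among them SLC7A5, SLC43A1 and SLC38A7. No TGATGNAA match in the 4 genes overlapped an antioxidant response match. A match says only that the letters are present.

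**Figure D3:**
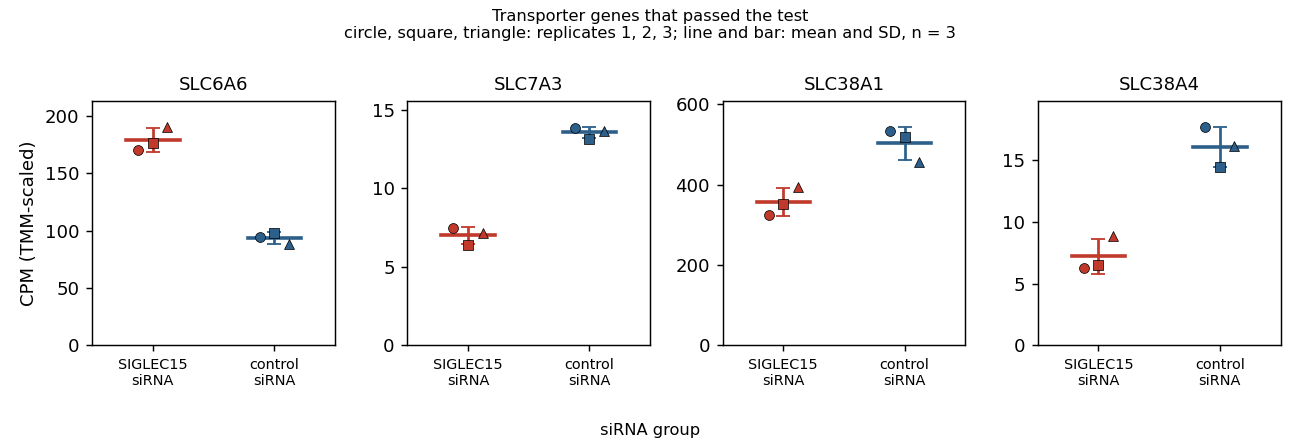
CPM in each library for the 4 called genes, with the mean and SD of 3 libraries per group and separate axes from 0. In every panel the 3 SIGLEC15 siRNA points and the 3 control points are apart, with SLC6A6 higher and SLC7A3, SLC38A1 and SLC38A4 lower in the SIGLEC15 siRNA libraries.

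SLC6A6 carries taurine, an organic osmolyte, into the cell with sodium and chloride. The gene (ENSG00000131389, chromosome 3, 14402576 to 14489349, plus strand) had 170, 176 and 190.5 CPM in the SIGLEC15 siRNA libraries and 94.8, 97.9 and 88 CPM in the control libraries. The lowest SIGLEC15 siRNA library stood well above the highest control library, and SLC6A6 rose 1.91-fold (log2 fold change 0.94, SE 0.0732, edgeR adjusted p = 0.00233). The call held whichever library was left out (edgeR adjusted p between 0.0115 and 0.0182). It was lost with the replicate number as a block (edgeR adjusted p = 0.0594). GRIP2 shares 239 exonic bases with SLC6A6 on the opposite strand in GENCODE 29, but had on average 0 counts in the SIGLEC15 siRNA libraries and 2.33 in the control libraries, beside 11472 and 5681 for SLC6A6. By FPKM, SLC6A6 averaged 18.2 ± 1.1 in the SIGLEC15 siRNA group and 9.52 ± 0.599 in the control group (SD, n = 3 each).

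The other members of SLC6 did not pass. SLC6A9, the glycine carrier GlyT1, had 27.7, 29.5 and 28.2 CPM in the SIGLEC15 siRNA libraries and 34.7, 34.8 and 31.2 CPM in the control libraries, groups that did not overlap (log2 fold change -0.24, SE 0.0856, edgeR adjusted p = 0.195). SLC6A8, which carries creatine, had a log2 fold change of -0.01 with a 95% interval of -0.23 to 0.21. Of the 19 SLC6 genes 4 were tested. Summed over the family, FPKM averaged 26.9 ± 1.13 in the SIGLEC15 siRNA libraries and 19 ± 0.893 in the control libraries (SD, n = 3 each). SLC6A6 made up 18.2 and 9.52 FPKM of these sums, and the estimates of the other 3 tested SLC6 genes lay below 0.

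The cationic amino acid carriers SLC7A1, SLC7A2 and SLC7A3 import arginine and lysine without a heavy chain. SLC7A3, or CAT3 (ENSG00000165349, chromosome X, 70925579 to 70931125, minus strand), had 7.48, 6.38 and 7.14 CPM in the SIGLEC15 siRNA libraries and 13.9, 13.2 and 13.7 CPM in the control libraries. The groups were far apart beside their spread, and SLC7A3 fell 1.94-fold (log2 fold change -0.95, SE 0.111, edgeR adjusted p = 0.00806). This call held whichever library was left out (edgeR adjusted p between 0.0274 and 0.0394). It was lost with the replicate number as a block (edgeR adjusted p = 0.0802). SLC7A1, or CAT1, the main carrier of the 3 by FPKM, had 256, 261 and 283 CPM in the SIGLEC15 siRNA libraries and 324, 309 and 286 CPM in the control libraries. Its groups did not overlap but lay close, and it did not pass (log2 fold change -0.20, 95% interval -0.37 to -0.03, edgeR adjusted p = 0.192).

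SLC7A2, or CAT2 (ENSG00000003989, chromosome 8, 17497088 to 17570573, plus strand), had 433, 4705 and 5536 counts in SIGLEC15 siRNA replicates 1, 2 and 3 and 4646, 3793 and 3917 counts in control replicates 1, 2 and 3. SIGLEC15 siRNA replicate 1 was thus low by itself: its 6.55 CPM was 9.77-fold below the lowest of the other 5 libraries. With all libraries the log2 fold change of SLC7A2 was -0.27 (SE 0.762, edgeR adjusted p = 0.899), and without SIGLEC15 siRNA replicate 1 it was 0.26 (adjusted p = 0.268). SLC7A2 was therefore read as uncertain in both directions.

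Single libraries of this kind were found for other genes too, in a search made after the SLC7A2 values were seen. Of 11433 genes with a mean of at least 5 CPM, 16 were at least 5-fold lower in SIGLEC15 siRNA replicate 1 than in every other library, and 10 to 13 were so in each of the other 5 libraries. SLC7A2 was the only carrier of the 7 families among them. Of the 16 other genes tested within 2 Mb of SLC7A2, 11 had at least 5 CPM, with a median ratio of SIGLEC15 siRNA replicate 1 to the mean of replicates 2 and 3 of 0.993. The lowest of these ratios, 0.2, was that of PSD3, a guanine nucleotide exchange factor for ARF6, with 10.3, 48.9 and 54 CPM in SIGLEC15 siRNA replicates 1, 2 and 3. What links the low reads of SLC7A2 and PSD3 was not tested.

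**Figure D4:**
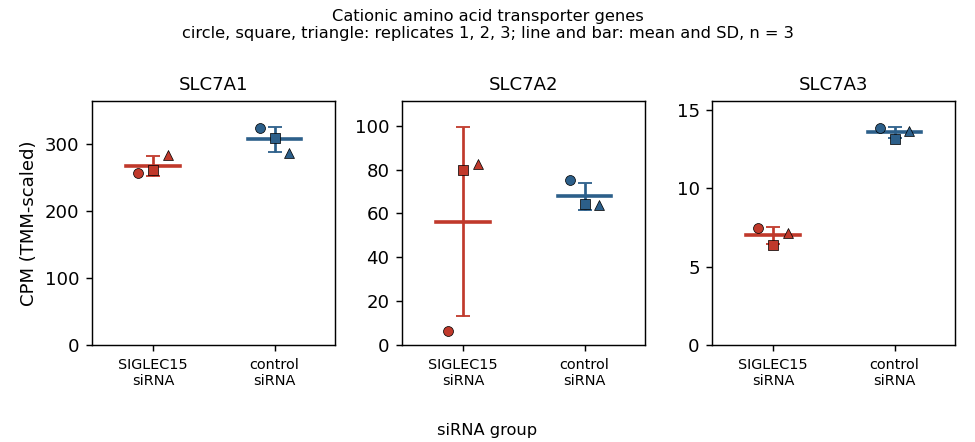
CPM in each library for the cationic amino acid carriers SLC7A1, SLC7A2 and SLC7A3, with mean and SD (n = 3 per group) and separate axes from 0. SIGLEC15 siRNA replicate 1 (circle) lies far below the other 5 libraries for SLC7A2 and among its group for SLC7A1 and SLC7A3.

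The heavy chain SLC3A2, also called CD98 or 4F2hc, brings SLC7A5, SLC7A6, SLC7A7, SLC7A8, SLC7A10 and SLC7A11 to the cell surface. SLC3A2 had 251, 225 and 223 CPM in the SIGLEC15 siRNA libraries and 226, 210 and 232 CPM in the control libraries. The groups overlapped, and SLC3A2 did not pass (log2 fold change 0.07, 95% interval -0.11 to 0.24, edgeR adjusted p = 0.703). The other heavy chain, SLC3A1, which serves the kidney cystine carrier SLC7A9, had 0, 2 and 8 counts in the SIGLEC15 siRNA libraries and 1, 0 and 9 counts in the control libraries.

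Among the light chains, SLC7A5 and SLC7A11 had estimates of opposite sign. SLC7A5 had 462, 451 and 458 CPM in the SIGLEC15 siRNA libraries and 511, 506 and 494 CPM in the control libraries. The groups did not overlap, yet SLC7A5 did not pass (log2 fold change -0.14, 95% interval -0.26 to -0.02, edgeR adjusted p = 0.187). SLC7A11, the cystine and glutamate exchanger xCT, had 188, 220 and 250 CPM in the SIGLEC15 siRNA libraries and 185, 177 and 166 CPM in the control libraries. These values were apart by a narrow gap, and SLC7A11 did not pass either (log2 fold change 0.32, 95% interval 0.06 to 0.58, edgeR adjusted p = 0.176). The FPKM ratio of SLC7A5 to SLC7A11 was 4.97, 4.14 and 3.71 in SIGLEC15 siRNA replicates 1, 2 and 3 and 5.61, 5.8 and 6.02 in control replicates 1, 2 and 3. SLC7A11-AS1, which shares 865 exonic bases with SLC7A11 on the opposite strand, had on average 32.3 and 20.7 counts in the SIGLEC15 siRNA and control libraries, beside 14062 and 10679 for SLC7A11.

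The minor light chains were at low levels in both groups. SLC7A6, or y+LAT2, had a log2 fold change of 0.06 (95% interval -0.21 to 0.33), and the leucine and alanine exchanger SLC7A8, or LAT2, one of -0.05 (95% interval -0.29 to 0.20). SLC7A7, or y+LAT1, had only 0.0906 and 0.0607 FPKM on average in the SIGLEC15 siRNA and control libraries. SLC7A6 shares 3371 exonic bases with SLC7A6OS on the opposite strand, and as strand use in the counting is not given in the sources used here, reads of these 2 genes cannot be told apart there. SLC7A6OS had a log2 fold change of 0.00 (SE 0.114, -0.00232 unrounded). Summed FPKM of the light chains was 2.51, 2.82 and 2.95 times that of SLC3A2 in SIGLEC15 siRNA replicates 1, 2 and 3 and 3.03, 3.19 and 2.81 times in control replicates 1, 2 and 3, ranges that overlap.

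All 4 tested SLC1 genes had estimates below 0 and none was called. SLC1A5 had 313, 292 and 297 CPM in the SIGLEC15 siRNA libraries and 337, 335 and 351 CPM in the control libraries, groups without overlap (log2 fold change -0.18, 95% interval -0.32 to -0.05, edgeR adjusted p = 0.136). SLC1A4, or ASCT1, which exchanges alanine, serine and cysteine, had 117, 114 and 116 CPM in the SIGLEC15 siRNA libraries and 135, 133 and 126 CPM in the control libraries. It too showed no overlap without passing (log2 fold change -0.18, 95% interval -0.32 to -0.04, edgeR adjusted p = 0.154). SLC1A1, the glutamate and cysteine carrier EAAT3, had a log2 fold change of -0.28 (SE 0.131) at 1.73 and 2.1 FPKM on average in the SIGLEC15 siRNA and control libraries. SLC1A3, or EAAT1, spread widely, with 5.39, 7.28 and 9.3 CPM in the SIGLEC15 siRNA libraries and 11.3, 11.1 and 6.1 CPM in the control libraries. Summed FPKM of SLC1 was 92.5 ± 1.24 in the SIGLEC15 siRNA libraries and 105 ± 0.798 in the control libraries (SD, n = 3 each), a sum dominated by SLC1A5.

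In SLC43, SLC43A1 and SLC43A3 lie 57 kb apart on chromosome 11 and had estimates of opposite sign. SLC43A1, or LAT3, a uniporter of leucine and other large neutral amino acids, had 41.1, 34.6 and 34.4 CPM in the SIGLEC15 siRNA libraries and 26.6, 29.8 and 31.7 CPM in the control libraries. The groups were apart, without a call (log2 fold change 0.32, 95% interval 0.05 to 0.59, edgeR adjusted p = 0.181). SLC43A3, known to carry purine nucleobases and not amino acids, had 109, 152 and 144 CPM in the SIGLEC15 siRNA libraries and 200, 161 and 134 CPM in the control libraries, which overlap (log2 fold change -0.29, SE 0.178). With 1 library left out, this estimate lay between -0.42 (without control replicate 3) and -0.13 (without control replicate 1). SLC43A2, or LAT4, stood at 0.523 and 0.447 FPKM on average in the SIGLEC15 siRNA and control libraries.

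Several members act at the lysosome. SLC38A9, an arginine sensor for mTORC1, had 27.3, 28.2 and 28.9 CPM in the SIGLEC15 siRNA libraries and 31.1, 23.4 and 22.9 CPM in the control libraries, so that the groups overlapped (log2 fold change 0.13, 95% interval -0.20 to 0.45). SLC38A7, which exports glutamine and asparagine from lysosomes, had 28, 25.6 and 28.8 CPM in the SIGLEC15 siRNA libraries and 20.9, 23 and 22.9 CPM in the control libraries. SLC38A7 did not overlap between the groups, but did not pass (log2 fold change 0.30, 95% interval 0.08 to 0.53, edgeR adjusted p = 0.143). SLC36A1, or PAT1, a proton-coupled carrier of small amino acids, had 19.9, 23.1 and 22.6 CPM in the SIGLEC15 siRNA libraries and 26.3, 24.1 and 25.8 CPM in the control libraries (log2 fold change -0.21, SE 0.0986, edgeR adjusted p = 0.306). Its relative SLC36A4 had a log2 fold change of -0.18 (SE 0.152), with overlapping groups. The remaining SLC38 genes were SLC38A3, SLC38A6 and SLC38A10, with log2 fold changes of -0.42, 0.12 and -0.03 and overlapping groups. SLC38A6 shares 245 exonic bases with TRMT5 on the opposite strand, which averaged 3942 and 4289 counts in the SIGLEC15 siRNA and control libraries, beside 1023 and 900 for SLC38A6, so its value is uncertain.

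**Figure D5:**
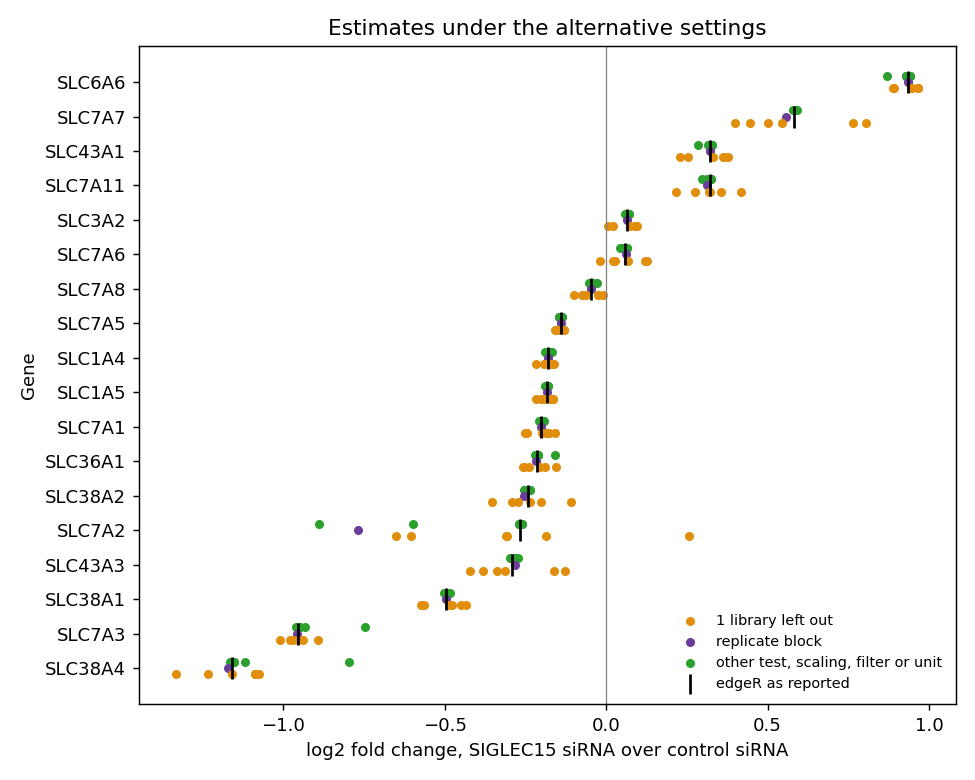
log2 fold change of the named genes as reported (black bar) and under 13 alternative settings (10 for SLC7A7), by kind of setting. SLC6A6, SLC7A3, SLC38A1 and SLC38A4 stayed on their side of 0 throughout, and SLC7A2 and SLC7A6 crossed it when a library was left out.

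Genes that work with these carriers were read from lists drawn up for this purpose with earlier results of these data known. The shares called in these lists are therefore not an independent test. Of 20 tested genes of the amino acid deprivation response 6 fell and 0 rose, with a median log2 fold change of -0.35, against -0.01 over all tested genes. Estimates lay below 0 for 12 of the 20 and above for 8. The 6 are 30% of the list, where 4.65% of all tested genes were called and 2.43% called lower. The 4 of smallest p were PPP1R15A, CHAC1, DDIT4 and CEBPG. CHAC1, which degrades glutathione, had 31.6, 30.8 and 31.5 CPM in the SIGLEC15 siRNA libraries and 60.4, 52.8 and 53 CPM in the control libraries and fell 1.77-fold (log2 fold change -0.82, SE 0.0833, edgeR adjusted p = 0.00536). CEBPG, a partner of ATF4, fell 1.55-fold, DDIT4, an inhibitor of mTORC1, 1.62-fold and PPP1R15A, the phosphatase subunit that reverses the block of translation, 1.65-fold. With the replicate number as a block these 4 were not called (edgeR adjusted p between 0.061 and 0.08). ATF4 itself had 1026, 911 and 918 CPM in the SIGLEC15 siRNA libraries and 1154, 1154 and 1258 CPM in the control libraries. The ATF4 groups were apart, but ATF4 did not pass (log2 fold change -0.32, SE 0.071, edgeR adjusted p = 0.0572). This depended on the setting. Of 13 alternative settings, 4 called ATF4 lower: DESeq2, a mean FPKM of at least 1 and the limma fits. It was not called with the replicate number as a block or with any 1 library left out. SLC7A5 and SLC7A11, both known ATF4 targets, had estimates of opposite sign as given above, and neither was called. Any link between ATF4 and the carrier estimates was not tested.

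Of 35 tested genes of amino acid synthesis and breakdown 3 fell and 2 rose, which is 14.3% called, where 4.65% of all tested genes were called. ASNS, which makes asparagine and is also 1 of the 6 in the deprivation list, had 196, 163 and 168 CPM in the SIGLEC15 siRNA libraries and 276, 294 and 298 CPM in the control libraries and fell 1.65-fold (log2 fold change -0.72, SE 0.0865, edgeR adjusted p = 0.00858). CTH, which makes cysteine from cystathionine, fell 1.63-fold, and GPT2, the mitochondrial alanine transaminase, 1.62-fold. With the replicate number as a block ASNS, CTH and GPT2 were not called (edgeR adjusted p between 0.0849 and 0.0915). TDO2, which breaks down tryptophan, was among those that rose, at 8.43, 7.17 and 5.7 CPM in the SIGLEC15 siRNA libraries and 0.727, 0.762 and 0.703 CPM in the control libraries.

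Of 37 tested genes of amino acid sensing by mTORC1, 1 rose and 2 fell, which is 8.11% called beside 4.65% of all tested genes. RRAGD, a Rag GTPase that docks mTORC1 at the lysosome, rose 1.59-fold, and RPTOR, the mTORC1 subunit that binds Rag GTPases, fell 1.34-fold (edgeR adjusted p = 0.0197 and 0.0218). FNIP2, a partner of folliculin, fell 1.64-fold (edgeR adjusted p = 0.0484). Of 13 alternative settings, RRAGD and RPTOR each lost the call in 7 and FNIP2 in 11. Of 13 tested genes of cystine and glutathione metabolism 1 rose (7.69% called), GCLM, the regulatory subunit of glutamate-cysteine ligase, by 1.34-fold, a call lost in 8 of 13 alternative settings. Of 17 tested carriers of amino acids and peptides outside the 7 families 1 fell (5.88% called, near the share of all tested genes), the mitochondrial glycine carrier SLC25A38, by 1.28-fold, likewise lost in 8. Of 11 tested partners and regulators of these carriers 1 rose and 1 fell (18.2% called). The one that fell was BSG, or basigin, a chaperone of monocarboxylate carriers, at 140, 128 and 134 CPM in the SIGLEC15 siRNA libraries and 264, 269 and 293 CPM in the control libraries (log2 fold change -1.04, SE 0.0685, edgeR adjusted p = 0.00137). The one that rose was ARL6IP5, which restrains the glutamate carrier SLC1A1, by 1.35-fold, a call lost in 7.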

How the data were processed

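The authors deposited whole-number counts and FPKM values per gene and library, per the file headers. HISAT, StringTie and edgeR appear, unversioned, in the submitters' processing notes. For genome build, counting method, strand use and siRNA sequence, the sources used here give nothing. Library totals were 57966691 to 67655254 counts. No value column lacked a sample (0 columns), and 0 rows lacked a gene name.

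All 58825 genes entered edgeR 4.0.16 (R 4.3.3) as counts (filterByExpr with a minimum count of 10 and a minimum total of 15, TMM scaling, quasi-likelihood F test, SIGLEC15 siRNA over control siRNA, no covariate). A gene was called where the Benjamini-Hochberg adjusted p over 18910 tested genes was under 0.05. A standard error is the absolute log2 fold change over the root of F, and 95% intervals use the residual and prior degrees of freedom. CPM values use TMM-scaled library sizes. The test was tried on simulated counts. Levels between genes are compared on FPKM. Exon overlaps come from GENCODE 29 and promoters from RefSeq (GRCh38.p14).

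The members and the gene lists were chosen with earlier results of these data known. Named were all called genes, the 12 of highest control FPKM, the heavy chains and tested light chains, each family's highest gene, and up to 4 called genes of smallest p per list with ATF4; other genes named, among them SLC6A8, SLC6A9, SLC38A7 and SLC38A9, were added after their values were seen. A few counted genes are not reported by name here. Alternatives were DESeq2 1.42.0, median-of-ratios scaling, no filter beyond 1 count, a mean FPKM of at least 1, limma 3.58.1 trend on log2(FPKM + 1) and log2(FPKM + 0.1), the replicate number as a block, and each library left out.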

Additional observations from a re-analysis of the deposited data

How the results depend on the processing

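Against 879 changed genes in all, DESeq2 gave 2916 and blocking on the replicate number 50; leaving out 1 library gave 260 to 431. Against 1 higher and 3 lower carrier genes, DESeq2 gave 4 and 7, adding SLC7A11, SLC43A1 and SLC38A7 on the higher side and SLC1A4, SLC1A5, SLC6A9 and SLC7A5 on the lower. The block gave 0 and 0 (adjusted p 0.0594 for SLC6A6, 0.0802 for SLC7A3, 0.089 for SLC38A4 and 0.186 for SLC38A1), and leaving out 1 library gave 1 to 1 higher and 1 to 3 lower: SLC6A6 and SLC7A3 each time, and SLC38A1 and SLC38A4 beside them only without SIGLEC15 siRNA replicate 3. The cause of the DESeq2 and block differences was not tested. Deviations from the group means were uncorrelated between libraries sharing number 1, 2 or 3 (r of -0.0489, 0.0111 and -0.0626). This does not exclude a pairing by design, as these r cover all tested genes, those of few counts included. The labels do not settle it either. Under the block PPP1R15A (0.061), CHAC1 (0.0669), CEBPG (0.0718), DDIT4 (0.08), CTH (0.0849), ASNS (0.0873) and GPT2 (0.0915) were not called either, and BSG (0.0403) and TDO2 (0.0362) were. Without a filter SLC38A1 had an adjusted p of 0.054 and 2 genes were lower. The log2 fold change of SLC7A2 ran from -0.65 to 0.26 with 1 library left out (0.26 without SIGLEC15 siRNA replicate 1), and that of SLC7A6 from -0.019 to 0.13 (-0.019 without control replicate 3). Of the 18 carrier genes followed across the settings, the other 16 kept their sign, and the remaining carriers named were not followed. SIGLEC15 was not called in any of the 9 alternatives that gave it a value. With few counts, 29 of the 60 genes could not be tested.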
